A study of Homo sapiens with 12 samples.

Results

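The response of HCC38 cells to interferon-β was followed in 6 RNA-seq libraries, 3 labelled untreated and 3 labelled as treated, out of 12 libraries in the study. HCC38 is an established human triple-negative breast cancer line. All 6 libraries carried the genotype label WT and came from cells kept in RPMI-1640 with 10% fetal calf serum and penicillin/streptomycin, and the treated cells had received interferon-β at 400 IU/mL for 48 hours. The 6 libraries were taken by their cell line label and compared by themselves; the other 6, also 3 untreated and 3 given the same dose for the same time and also labelled WT, came from MDA-MB-231, another triple-negative line grown in DMEM (1 g/L glucose), and were used only to show where HCC38 differed from it. Titles named the libraries biological replicates without stating that they came from separate cultures, so p-values measure the spread between these libraries, which may be technical. Library totals were 26660038 to 37116456 counts, and 23234 to 24247 genes had at least 1 count.

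Interferon-β, of the type I class, acts on cells through the receptor chains IFNAR1 and IFNAR2 and the kinases JAK1 and TYK2. A transcription factor complex that holds STAT2 and IRF9 then binds the interferon-stimulated response element (ISRE) near many antiviral genes, and a further DNA element of interferon signalling is the gamma-activated site (GAS). In epithelial tumour cells the pathway is known for antiviral defence, antigen presentation and restraint of growth.

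The line label was checked against marker genes. The epithelial genes KRT8 and EPCAM had untreated means of 959 and 213 CPM (read counts relative to library totals scaled by the TMM method). Of 12 markers for the line, 11 had enough counts to test and KRT14 did not. KRT17 was at 0.808 CPM and VIM at 1050 CPM untreated. The oestrogen and progesterone receptor genes ESR1 and PGR had 0 to 2 counts per library. ERBB2 was at 164 CPM. Of 22 leukocyte markers, 16 were too low to test, with CD2, MS4A1, NKG7, FCGR3A, TYROBP and MZB1 among those at 0 counts in all 6 libraries. PTPRC, the pan-leukocyte CD45 gene, was at 0.187, 0.0808 and 0.238 CPM untreated and 0.605, 0.636 and 0.526 CPM treated and passed the test as higher (adjusted p = 0.02). The integrin gene ITGAX was at 2.80, 1.80 and 2.08 CPM untreated and 4.01, 4.33 and 2.67 CPM treated, and it passed (adjusted p = 0.0389) although the groups overlapped. The part of other cells in the results was not tested. The fibroblast and endothelial markers THY1 and TEK were also at 0, whereas the collagen genes COL1A1 and COL3A1 had means of 2638 and 177 CPM in untreated cells. In bulk RNA, fewer cells of a kind and less RNA per cell cannot be told apart.

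The start regions of 5 genes are shown as examples. IFI27 had the largest rise, and TNFSF13B rose outside the interferon list with an ISRE. NT5E and DKK1 were large rises with no match, and LGR4 was a large fall with no match. Other large changes did have matches. DHRS2, a large rise outside the list, had 1 GAS match, and ACTA2, a large fall, had 1 ISRE match (regions not shown). Each region runs from 250 bases before to 30 bases after the RefSeq start site on GRCh38.p14. Capitals mark matches on either strand to the ISRE letters (GAAA, any 2 bases, GAAA) or the GAS letters (TTCNNNGAA), and in IFI27 they cover 2 ISRE matches and 1 overlapping GAS match.
IFI27, chr14:94110486-94110765, plus strand: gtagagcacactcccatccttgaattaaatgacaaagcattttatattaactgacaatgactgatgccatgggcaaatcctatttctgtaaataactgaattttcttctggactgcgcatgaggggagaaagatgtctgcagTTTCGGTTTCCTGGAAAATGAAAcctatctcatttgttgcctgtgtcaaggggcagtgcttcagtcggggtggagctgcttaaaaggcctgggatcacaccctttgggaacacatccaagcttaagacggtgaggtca
TNFSF13B, chr13:108269379-108269658, plus strand: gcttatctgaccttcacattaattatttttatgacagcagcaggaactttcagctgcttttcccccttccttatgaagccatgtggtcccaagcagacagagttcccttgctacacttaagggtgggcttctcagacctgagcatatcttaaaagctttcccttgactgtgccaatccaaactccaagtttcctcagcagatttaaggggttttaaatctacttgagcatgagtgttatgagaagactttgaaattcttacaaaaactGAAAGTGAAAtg
NT5E, chr6:85449833-85450112, plus strand: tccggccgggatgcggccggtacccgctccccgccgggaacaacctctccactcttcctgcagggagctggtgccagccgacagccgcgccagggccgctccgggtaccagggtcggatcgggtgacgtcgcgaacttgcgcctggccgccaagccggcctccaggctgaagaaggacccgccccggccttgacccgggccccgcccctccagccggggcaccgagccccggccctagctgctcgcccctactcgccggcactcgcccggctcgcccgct
DKK1, chr10:52314031-52314310, plus strand: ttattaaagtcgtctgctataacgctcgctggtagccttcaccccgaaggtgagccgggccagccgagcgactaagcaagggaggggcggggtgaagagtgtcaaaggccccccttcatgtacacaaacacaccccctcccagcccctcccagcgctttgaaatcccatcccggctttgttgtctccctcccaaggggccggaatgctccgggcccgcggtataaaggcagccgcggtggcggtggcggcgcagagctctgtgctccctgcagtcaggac
LGR4, chr11:27472761-27473040, minus strand: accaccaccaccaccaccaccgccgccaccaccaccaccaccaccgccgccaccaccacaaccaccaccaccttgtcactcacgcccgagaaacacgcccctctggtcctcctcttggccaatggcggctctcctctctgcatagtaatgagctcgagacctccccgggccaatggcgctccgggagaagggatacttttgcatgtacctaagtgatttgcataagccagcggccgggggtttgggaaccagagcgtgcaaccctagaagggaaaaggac

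Of 61552 genes listed, 16484 had enough counts to test, and 1959 passed an adjusted p under 0.05 (11.9%). Of these, 1083 were higher (6.57% of those tested) and 876 lower (5.31%). Counts in every gene list below are to be read beside these 2 shares. A further view by libraries found that the treated and untreated groups did not overlap in CPM in 4777 genes (29%). Most changes were small: 184 genes rose and 75 fell at least 2-fold, 38 and 9 at least 4-fold. The median log2 fold change was 0.457 over the higher genes, -0.429 over the lower and 0.0016 over all tested. Leaving out treated replicate 1 gave 1097 calls and leaving out untreated replicate 3 gave 1225, and on the deposited FPKM values 492 or 521 genes passed, depending on the constant added before taking logs; no gene was called in the opposite direction in any of these.

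**Figure D1:**
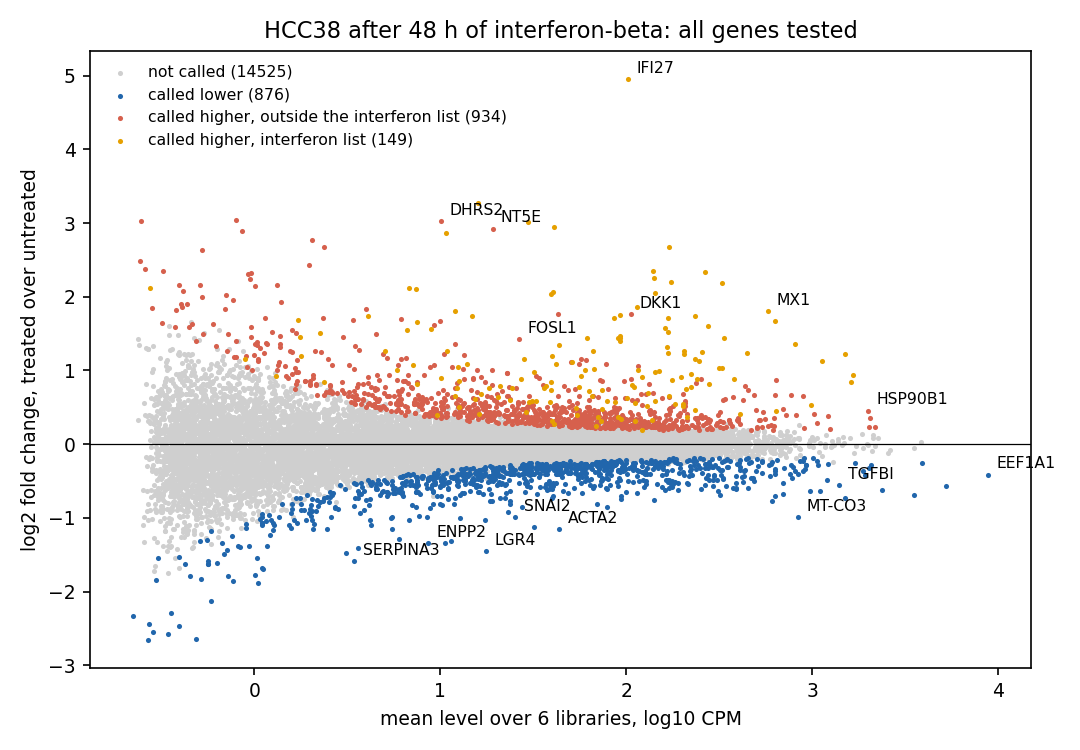
Each point is 1 of the 16484 genes tested, with its mean level over the 6 HCC38 libraries in log10 CPM (horizontal) and its log2 fold change (vertical). The highest point is IFI27 at 4.96, and 934 of the 1083 higher genes lie outside the interferon list.

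Known interferon-stimulated genes held the largest rise and a small share of the calls. A list of 212 such genes, compiled from general knowledge and not exhaustive, had 191 tested members, of which 149 rose and 2 fell, with a median of 0.79. The falling members were CCL2, a monocyte chemokine, at -0.54 ± 0.11 (adjusted p = 0.00464) and SAT1, a polyamine acetyltransferase, at -0.40 ± 0.09 (adjusted p = 0.00736). IFI27, a mitochondrial protein gene induced by interferon, was at 6.44, 6.25 and 6.40 CPM in untreated replicates 1, 2 and 3 and 193, 214 and 187 CPM in the treated. It rose 31.1-fold (log2 4.96 ± 0.09, adjusted p = 7.42e-16). BST2, which tethers budding virions to the cell, was at 44.9, 47.4 and 45.4 CPM without and 285, 329 and 265 CPM with interferon, and its log2 change was 2.67 ± 0.08 (adjusted p = 1.38e-12). CMPK2, LAMP3, RSAD2 and GBP5 rose between 7.27-fold and 9.68-fold. The groups overlapped in none of these 6 genes, which was a condition for naming them.

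The list accounted for 13.8% of the higher genes. Outside it, 934 genes rose with a median of 0.422, against 0.982 for the rising list members, and 112 of them rose at least 2-fold against 72 in the list. ISRE letters lay in the start regions (250 bases before to 50 after the start, both strands) of 50.9% of the rising list genes, 55 of 108 with a RefSeq region. They lay in 3.63% of the rising genes outside the list (26 of 717), 2.54% of the falling genes and 2.97% of all tested genes. GAS letters were in 17.6%, 5.44%, 5.55% and 6.32% of the same sets. Letters of the AP-1 site (TGANTCA, both strands), which FOS and JUN proteins bind, were in 12% of rising list genes (13 of 108), 8.23% of rising genes outside the list, 4.91% of falling genes (4 of 40 that fell at least 2-fold), 4.8% of all tested genes and 7.76% of all RefSeq start regions in the table. A match of letters is a description and shows no binding.

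Among the largest rises outside the list were genes of the cell surface and of secretion. NT5E, which encodes the CD73 enzyme that makes adenosine outside the cell (chr6:85449584-85495791 on the plus strand, GENCODE release 29), was at 4.29, 4.17 and 4.87 CPM in the untreated libraries. In the treated ones it stood at 38.4, 30.3 and 32.5 CPM, well apart, a rise of 7.60-fold (log2 2.93 ± 0.12, adjusted p = 3.82e-11). DKK1, a secreted blocker of Wnt receptors (chr10:52314296-52318042, plus strand), went from 44.0, 47.9 and 52.0 to 169, 163 and 158 CPM, or 1.77 ± 0.07 (adjusted p = 5.29e-11). Both groups were tight in DKK1, whose start region above held none of the searched letters. SCG2, a granin of secretory vesicles, had 17.2, 20.6 and 20.4 CPM untreated and 69.4, 67.4 and 61.7 treated, with a log2 change of 1.77 ± 0.09 (adjusted p = 6.54e-10).

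DHRS2, a short-chain dehydrogenase gene, was at 2.33, 2.15 and 2.14 CPM in untreated and 17, 21 and 15.9 CPM in treated cells, and rose 8.13-fold (adjusted p = 2.42e-10). ATP10A, a lipid flippase gene, had 0.653, 0.781 and 0.442 and 5.03, 3.60 and 3.65 CPM and rose by a log2 change of 2.68 ± 0.25 (adjusted p = 1.37e-06). TNFSF13B, the B cell survival factor BAFF, was at 0.591, 0.565 and 0.578 and 2.42, 2.13 and 2.11 CPM, a log2 change of 1.93 ± 0.26 (adjusted p = 7.94e-05). Both it and ATP10A are often counted as interferon targets, so the boundary of the list is not sharp. EVI2B, a surface glycoprotein gene, rose by 1.83 ± 0.17 (adjusted p = 1.15e-06), with 30.1% of its exon bases shared with another annotated gene. LNCAROD, ESM1, COL13A1, NTSR1, RASD1, DAPP1 and H4C15 also rose, by 2.02 to 3.04, from untreated means of 0.163 to 0.508 CPM. LNCAROD rested on 1, 12 and 4 counts against 40, 39 and 41. On FPKM the calls of ATP10A, COL13A1, TNFSF13B, RASD1 and H4C15 were lost.

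**Figure D2:**
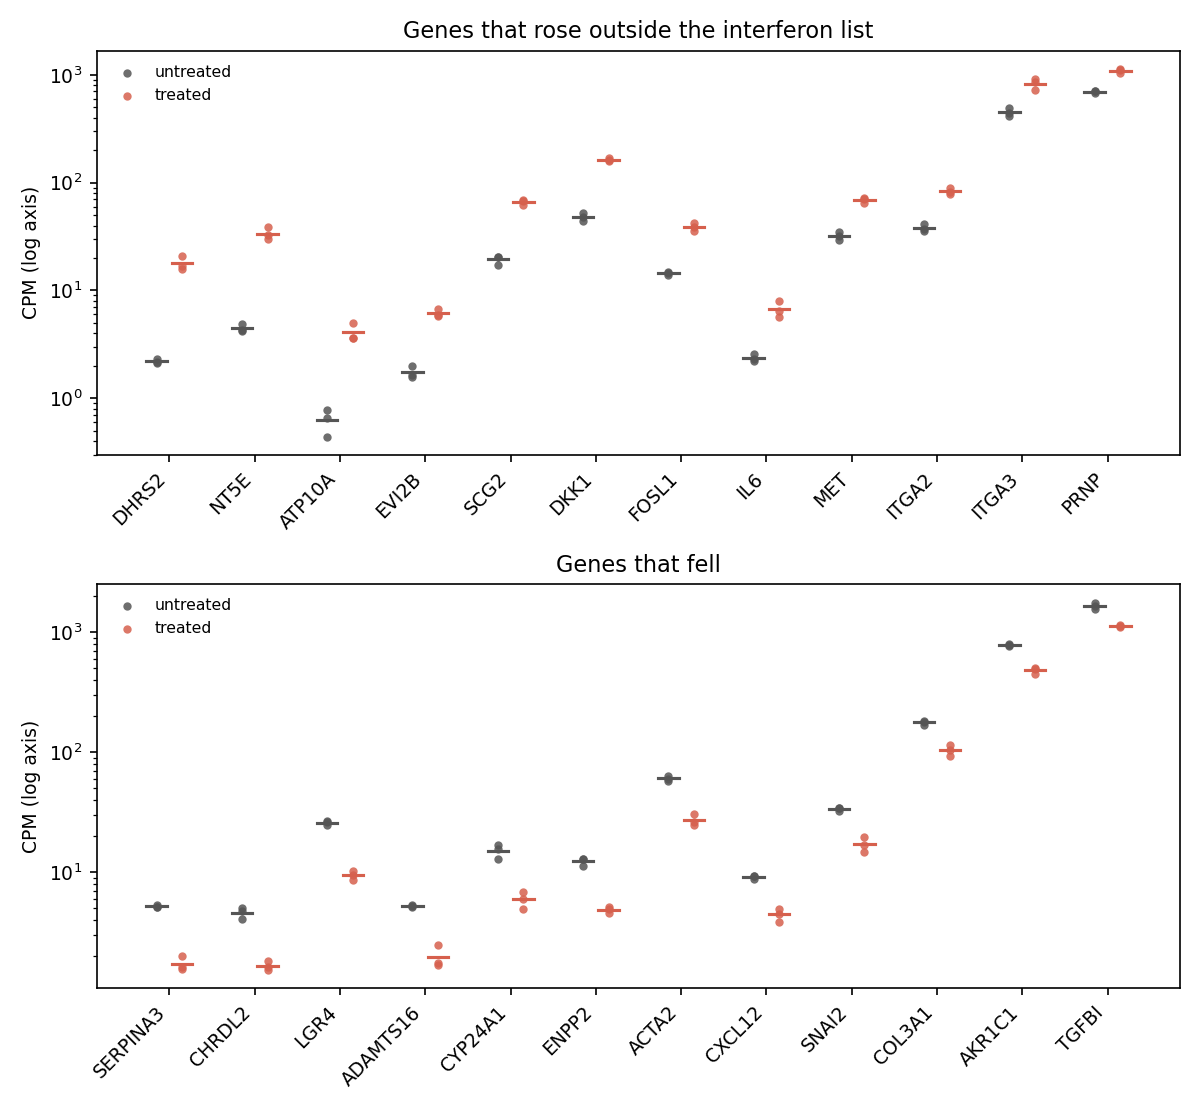
CPM on a log axis for 12 genes that rose outside the interferon list (top) and 12 that fell (bottom); grey points are the 3 untreated and red points the 3 treated libraries, and bars are group means. The groups do not overlap in any of the 24 genes, which was a condition for genes named by rule. DKK1 sits at 44.0 to 52.0 CPM untreated and 158 to 169 treated, LGR4 at 24.8 to 26.5 and 8.61 to 10.2.

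Some of the genes that growth factor signalling through ERK is known to switch on rose. Of 43 tested immediate early and MAPK feedback genes, 18 rose and none fell (median 0.29; 6.57% of all genes tested were called higher and 5.31% lower). FOSL1, an AP-1 subunit, was at 14.9, 13.8 and 14.5 CPM in the untreated and 41.9, 38.5 and 35.6 CPM in the treated libraries, 1.43 ± 0.09 on the log2 scale (adjusted p = 1.39e-08). The phosphatase gene DUSP6, which dampens ERK, rose by 1.02 ± 0.10 (adjusted p = 3.2e-06), though 40.5% of its exon bases lie opposite another gene. DUSP4 (0.75) and DUSP5 (0.73) rose as well, as did the feedback inhibitors SPRY2 (0.83), SPRY4 (0.64) and SPRED2 (0.32). All 3 ETS factors on the list rose, ETV1 by 0.53, ETV4 by 0.45 and ETV5 by 0.47. PHLDA1 (0.88 ± 0.07, adjusted p = 2.07e-07) and the transcription factor gene KLF4 (1.00 ± 0.10, adjusted p = 1.62e-06) rose too.

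Ligands and receptors that can feed that pathway also moved. Among 50 receptor kinases and their ligands, 15 rose and 2 fell (median 0.14). Of 8 tested ligands of the EGF receptor family, 5 rose: AREG from 5.94 to 12.5 CPM (1.07), EREG (1.04), BTC (1.28), EPGN (1.46) and TGFA (0.93); HBEGF was at -0.14 ± 0.20 (adjusted p = 0.717). The hepatocyte growth factor receptor gene MET was at 29.1, 31.9 and 34.8 CPM untreated and 72.3, 64.4 and 70.2 CPM treated, a rise of 2.16-fold (adjusted p = 1.04e-07). AXL, the receptor of GAS6, had 173, 161 and 176 CPM without and 304, 316 and 286 CPM with interferon (0.83 ± 0.06, adjusted p = 1.38e-07), and its ligand gene GAS6 rose by 0.60 ± 0.08 (adjusted p = 7.85e-05). FGFR4, of the fibroblast growth factor receptors, fell (-0.34 ± 0.10, adjusted p = 0.0338), with groups that overlapped. DDR2, a collagen receptor, was lower in counts at -0.43 ± 0.06 (adjusted p = 0.000147) and not in FPKM, where its difference was 0.0410.

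Cytokine genes also rose. Of 40 tested interleukins, chemokines and receptors outside the interferon list, 11 rose and 1 fell (median 0.2), and 6 rose without treated replicate 1. The shares over all genes tested were 6.57% higher and 5.31% lower. IL6 was at 2.58, 2.24 and 2.31 CPM untreated and 7.93, 5.69 and 6.43 treated, and rose 2.81-fold (adjusted p = 1.11e-05). CXCL8, the neutrophil chemokine interleukin 8, rose by 1.21 ± 0.11 (adjusted p = 6.66e-07), and IL7R, the interleukin 7 receptor, by 1.09 ± 0.09 (adjusted p = 6.15e-07). CXCL12, the ligand of CXCR4, went down, from 8.80, 9.24 and 9.25 to 3.85, 4.96 and 4.51 CPM (-1.03 ± 0.13, adjusted p = 5.02e-05). BIRC3, an inhibitor of apoptosis in NF-κB signalling, rose by 1.12 ± 0.09 (adjusted p = 1.23e-07), 1 of 5 rising and no falling genes among 26 of that pathway; 3 rose without untreated replicate 2 or 3 or treated replicate 1.

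Adhesion genes rose more often than they fell, while matrix genes went both ways. Of 59 keratin and adhesion genes, 24 rose and 4 fell (median 0.2), with 15 rises without untreated replicate 3. The shares over all genes tested were 6.57% higher and 5.31% lower. ITGA2, a collagen-binding integrin chain, was at 35.3, 37.1 and 41.1 and 89.3, 81.5 and 78.3 CPM in untreated and treated cells, 1.14 ± 0.08 on the log2 scale (adjusted p = 4.9e-08). ITGA3, which pairs with ITGB1 to bind laminins, was at 493, 419 and 444 and 850.1, 912 and 725 CPM (0.88 ± 0.08, adjusted p = 1.31e-06). The laminin chain genes LAMA3 (0.86) and LAMB3 (0.44) rose too. Over the 60 collagen and matrix genes, 10 rose and 11 fell (median -0.03; 7 fell without treated replicate 1). In plasminogen activation, the protease gene PLAU rose by 0.68 ± 0.07 (adjusted p = 2.43e-06), its receptor PLAUR by 0.68 ± 0.11 (adjusted p = 0.00038) and the protease inhibitor gene SERPINE2 by 0.89 ± 0.06 (adjusted p = 4.15e-08). In the list of 49 extracellular proteases and inhibitors, 16 rose and 8 fell, the falls including ADAM12 (-0.75), ADAMTS5 (-0.81) and MMP16 (-0.66).

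Histone genes and several chaperones of the endoplasmic reticulum rose. Of 45 tested histone genes, 17 rose and none fell (median 0.37): 4 of 6 H1 genes, 7 of 13 H2B, 2 of 8 H2A, 1 of 9 H3 and 3 of 9 H4 genes. H1-2, a linker histone gene, was at 611, 587 and 581 CPM untreated and 971, 999 and 859 CPM treated (0.67 ± 0.06, adjusted p = 2.16e-06). H4C8, a core histone gene, rose by 0.85 ± 0.07 (adjusted p = 2.32e-07). Most histone messages lack a poly(A) tail; whether RNA was selected by poly(A) or depleted of ribosomal RNA is not given in the sources used here, and the part of that step was not tested. HSP90B1, a chaperone of the endoplasmic reticulum, had 1577, 1750 and 1726 and 2393, 2088 and 2448 CPM (0.46 ± 0.07, adjusted p = 0.00025), and CALR, which folds glycoproteins such as MHC class I, rose by 0.36 ± 0.06 (adjusted p = 0.0005). PRNP, the prion protein gene, was at 681, 700.1 and 703 CPM untreated and 1128, 1040 and 1105 CPM treated (0.65 ± 0.06, adjusted p = 7.27e-07). Over the 40 genes of the integrated stress and unfolded protein responses, 8 rose and 4 fell, beside 6.57% and 5.31% over all genes tested. HSPA5 at 0.28 ± 0.06 (adjusted p = 0.00312) was among the rises and DDIT4 at -0.54 ± 0.08 (adjusted p = 0.000206) among the falls. Without untreated replicate 3, 5 rose, and without treated replicate 2, 7 fell.

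**Figure D3:**
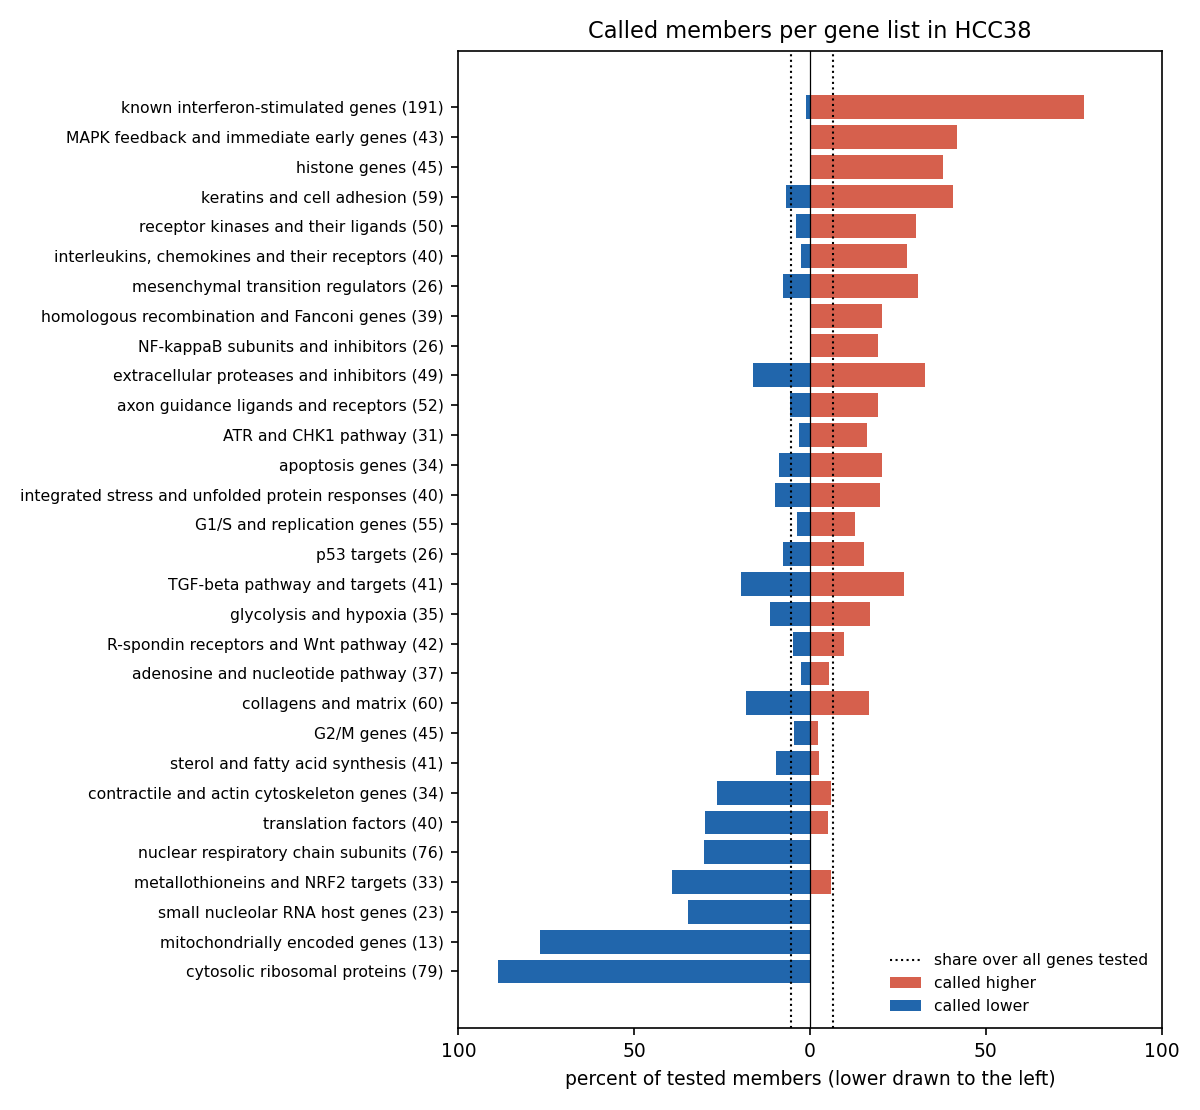
Percent of tested members called higher (right, red) and lower (left, blue) in 30 gene lists, with the number tested in parentheses; dotted lines mark 6.57% higher and 5.31% lower over all genes tested. Ribosomal protein genes (70 of 79 lower) and mitochondrially encoded genes (10 of 13 lower) stand at the bottom, and interferon-stimulated genes (149 of 191 higher) at the top.

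The fall with the smallest adjusted p among the 16 largest was LGR4, which encodes a receptor for R-spondins that strengthens Wnt signalling (chr11:27365961-27472775, minus strand). Its level was 24.8, 26.1 and 26.5 CPM in the untreated libraries and 8.61, 9.48 and 10.2 CPM in the treated, a log2 change of -1.45 ± 0.10 (adjusted p = 2.87e-08). Together with the rise of DKK1, this put 2 regulators at the Wnt receptor among the largest changes. Yet in the list of 42 tested Wnt genes 4 rose and 2 fell (median 0.041), near the 6.57% and 5.31% over all genes tested. The Wnt target AXIN2 was at -0.34 ± 0.27 (adjusted p = 0.471), the co-receptor LRP6 at -0.09 ± 0.06 (adjusted p = 0.394) and CTNNB1, the β-catenin gene, at 0.01 ± 0.06 (adjusted p = 0.937). ROR1 rose by 0.67 ± 0.14 (adjusted p = 0.0054). FZD8 and WNT9A passed at adjusted p of 0.0204 and 0.0347 and lost the call without untreated replicate 2 or treated replicate 1 or 2, WNT9A also without untreated replicate 1 (highest adjusted p = 0.085 for FZD8 and 0.171 for WNT9A in edgeR). NKD1, lower in counts (-0.54), was at 1.07 and 1.72 on the FPKM scales and also lost its call without untreated replicate 1 or 2 or treated replicate 2 or 3 (highest adjusted p = 0.119).

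Several of the other large falls were in genes for secreted proteins. SERPINA3, an acute-phase protease inhibitor, was at 5.13, 5.30 and 5.07 CPM untreated and 1.63, 1.56 and 1.99 CPM treated (-1.59 ± 0.17, adjusted p = 7.17e-06); 31.8% of its exon bases are shared with another gene. CHRDL2, a secreted BMP antagonist, went from 4.97, 4.07 and 4.76 to 1.63, 1.53 and 1.81 CPM (-1.48 ± 0.18, adjusted p = 2.78e-05), and CHRD, chordin, fell too (-1.69 ± 0.34, adjusted p = 0.00307). ADAMTS16, a matrix protease gene, was at 5.19, 5.28 and 5.14 and 1.74, 1.69 and 2.48 CPM (-1.41 ± 0.18, adjusted p = 4.62e-05), a call that was lost on FPKM. The groups did not overlap in any of these genes, which was a condition for naming them.

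CYP24A1, the enzyme that inactivates vitamin D, was at 12.9, 16.8 and 15.7 CPM without interferon and 4.95, 6.87 and 5.98 CPM with it, -1.35 ± 0.14 on the log2 scale (adjusted p = 4.01e-06). ENPP2, autotaxin, which makes lysophosphatidic acid, had 12.8, 12.8 and 11.2 and 4.57, 5.09 and 4.89 CPM and fell (-1.34 ± 0.12, adjusted p = 8.56e-07). In both genes every treated library was below every untreated one, as the rule for naming them required. The remaining largest falls had at most 62 counts in any library. LDLRAD4 (-1.88), S100A8 (-1.85), DUSP15 (-1.78), WFDC21P (-1.77), CARMN (-1.70), LEFTY1 (-1.48), PCSK4 (-1.40), MIR210HG (-1.39), BCYRN1 (-1.38) and SOX18 (-1.38) belong here. Of these, 6 lost the call when 1 library was left out: LEFTY1 with any but treated replicate 2 (adjusted p up to 0.151), PCSK4 with untreated replicate 1 or 2 or treated replicate 3 (0.105), MIR210HG with replicate 1 of either group (0.119), BCYRN1 with untreated replicate 3 or treated replicate 2 (0.0799), SOX18 with untreated replicate 1 or 3 or treated replicate 2 or 3 (0.129) and DUSP15 with treated replicate 1 (0.0583). LDLRAD4 was at 0.0641 on the log2(FPKM + 1) scale.

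In the contractile and mesenchymal lists ACTA2 and SNAI2 fell clearly, while the medians of both lists lay near 0. ACTA2, smooth muscle α-actin, was at 58.0, 59.4 and 63.5 CPM in untreated and 24.6, 26.2 and 30.3 CPM in treated cells (-1.16 ± 0.09, adjusted p = 1.12e-07); 30.1% of its exon bases lie opposite other genes, among them the apoptosis receptor gene FAS. Of 34 contractile and actin genes, 9 fell and 2 rose (median -0.043), beside 5.31% lower and 6.57% higher over all genes tested. The falls included the thymosin gene TMSB10 (-0.45) and the myosin light chain genes MYL6 (-0.32) and MYL9 (-0.34). Their log2 ratios of mean FPKM were -0.12, -0.11 and -0.23. SNAI2, the mesenchymal transcription factor Slug, stood at 32.5, 34.1 and 34.3 CPM untreated and 16.9, 14.6 and 19.5 CPM treated (-0.99 ± 0.10, adjusted p = 4.79e-06). Other genes of the mesenchymal state rose: CD44, a hyaluronan receptor, by 0.64 ± 0.06 (adjusted p = 1.18e-06) and VIM, vimentin, by 0.38 ± 0.06 (adjusted p = 0.000314). Over 26 mesenchymal transition regulators 8 rose and 2 fell (median 0.026), with 4 rises left when untreated replicate 2 or 3 was dropped and 5 when treated replicate 1 or 3 was.

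The TGF-β list divided by gene, with 11 of 41 higher and 8 lower (median 0.034, beside 6.57% higher and 5.31% lower over all genes tested). TGFBI, a matrix protein named for its induction by TGF-β, was at 1768, 1653 and 1568 CPM untreated and 1111, 1157 and 1134 CPM treated (-0.55 ± 0.06, adjusted p = 8.42e-06). The activin trap FST (-0.81 ± 0.12, adjusted p = 0.000211), the decoy receptor BAMBI (-0.48 ± 0.08, adjusted p = 0.000788), the ligand TGFB3 (-0.71 ± 0.12, adjusted p = 0.000701) and the BMP targets ID1 (-0.58) and ID3 (-0.46) fell. Rises were seen for INHBA, the activin A chain (0.90 ± 0.09, adjusted p = 2.18e-06), THBS1 (0.67) and the receptor TGFBR2 (0.59). The fibrillar collagen gene COL3A1 was at 178, 184 and 169 and 92.9, 105 and 115 CPM (-0.76 ± 0.08, adjusted p = 3.11e-06), and COL5A3 (-0.78), POSTN (-0.54), MATN2 (-0.73) and BGN (-0.48) fell as well, whereas COL1A1 was at -0.11 ± 0.08 (adjusted p = 0.433).

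Genes of the oxidant and metal response fell more often than they rose. Of 33 tested, 13 were lower and 2 higher (median -0.2), and 8 were lower without untreated replicate 3 or without treated replicate 1. AKR1C1, an aldo-keto reductase, was at 766, 801 and 779 CPM untreated and 448, 496 and 502 CPM treated (-0.70 ± 0.06, adjusted p = 6.87e-07), and AKR1C3 also fell (-0.50 ± 0.06, adjusted p = 5.14e-05); the AKR1C genes are close copies, so reads may be shared between them. The ferritin genes FTH1 (-0.36) and FTL (-0.39), the pentose phosphate enzyme TKT (-0.41) and haem oxygenase HMOX1 (-0.39) were lower. FTH1 shares 62.4% of its exon bases with a gene on the other strand and its call was lost on log2(FPKM + 1). MT2A, a metallothionein, rose by 0.40 ± 0.12 (adjusted p = 0.0422) with overlapping groups, while MT1X (-0.64) and MT1E (-0.47) fell.

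The broadest fall was in genes for the ribosome. All 79 tested cytosolic ribosomal protein genes had estimates below 0, and 70 fell, by 0.29 to 0.70 on the log2 scale (median of all 79, -0.45). RPLP0, of the ribosomal stalk, was at 1369, 1274 and 1381 CPM in untreated libraries and 825, 923 and 853 CPM in treated ones (-0.63 ± 0.06, adjusted p = 2.6e-06). RPS12 had 369, 365 and 399.7 CPM untreated and 242, 255 and 232 treated (-0.64 ± 0.06, adjusted p = 2.83e-06), and RPS24 and RPL23 were at -0.59 ± 0.06 and -0.61 ± 0.06 (adjusted p = 4.47e-06 and 6.42e-06). Ribosomal protein genes took 2.67 to 2.84% of all counts without interferon and 1.98 to 2.07% with it. Ribosomal protein genes have many processed pseudogenes that can take their reads. On log2(FPKM + 1) 13 of the 79 fell and with 0.1 added 18 did, with a median of -0.26 in both.

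Of 40 translation factors, 12 fell and 2 rose (median -0.046). EEF1A1, elongation factor 1α, was at 9862, 10090 and 10130 CPM untreated and 7308, 7759 and 7502 CPM treated (-0.41 ± 0.05, adjusted p = 5.94e-05). EEF1B2 (-0.40), TPT1 (-0.34), RACK1 (-0.33), EEF2 (-0.28), PABPC1 (-0.28) and EIF4B (-0.28) fell, while EIF4G1 (0.21) and EIF3C (0.39) rose. Both of those rises missed the threshold when untreated replicate 2, untreated replicate 3 or treated replicate 1 was dropped (highest adjusted p = 0.169 for EIF4G1 and 0.135 for EIF3C), and 5 factors rose without treated replicate 2. EEF1G is listed at 0 counts in all 6 libraries, as is IRF7 of the interferon list. Low counts did not always go with low FPKM. EIF4A1 had untreated means of 1.67 CPM and 389 FPKM, and the glycolysis gene ALDOA 9.72 CPM and 774 FPKM. The source of this gap was not tested. Among 23 hosts of small nucleolar RNAs, 8 fell and none rose (median -0.21), including SNHG29 (-0.47 ± 0.07, adjusted p = 0.000177) and GAS5 (-0.50 ± 0.08, adjusted p = 0.000254); 4 or 5 fell without any 1 of untreated replicates 1 and 3 and the 3 treated replicates.

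Messages of this machinery are known for a pyrimidine run at their first base, the terminal oligopyrimidine tract, through which translation is controlled. The bases around the RefSeq start site (10 before to 20 after) are given for 6 falling genes with such a run and 2 without one at that start. Capitals mark the run, a C followed by at least 5 C or T that begins within 10 bases of the start. Runs that begin further away are left in lower case. Other starts of these genes are not shown, so the lack of a run applies to this start alone.
RPLP0, chr12:120201092-120201121, minus strand: ggcgcgaggCCCTTCTCTCgccaggcgtcc
RPS12, chr6:132814559-132814588, plus strand: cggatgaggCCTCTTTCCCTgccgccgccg
RPS24, chr10:78033853-78033882, plus strand: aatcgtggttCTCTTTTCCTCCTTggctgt
EEF1A1, chr6:73521013-73521042, minus strand: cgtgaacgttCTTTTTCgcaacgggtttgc
TPT1, chr13:45341164-45341193, minus strand: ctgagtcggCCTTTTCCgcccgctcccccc
EEF2, chr19:3985444-3985473, minus strand: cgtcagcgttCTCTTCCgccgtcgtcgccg
GAS5, chr1:173869026-173869055, minus strand: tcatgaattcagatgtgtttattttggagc
COX7A2, chr6:75250279-75250308, minus strand: ccattgtcttaacactgactgacttctcta
Runs of 6 or more that began within 10 bases of the start were counted over genes with a RefSeq start region only. They were found in 81.0% of ribosomal protein genes (51 of 63) and 58.1% of translation factors (18 of 31). The share was 47.6% of small nucleolar RNA hosts (10 of 21), against 20.9% of all tested genes (2428 of 11601). In the ribosomal and translation lists, among protein-coding genes at 10 CPM or more, 53 of 67 genes with a run and 11 of 23 without fell. Ribosomal protein genes had both more runs and more falls (70 of 79) than translation factors (12 of 40). Run and list therefore cannot be told apart in these pooled counts. Outside these lists 5.31% of genes with a run and 5.13% without fell.

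**Figure D4:**
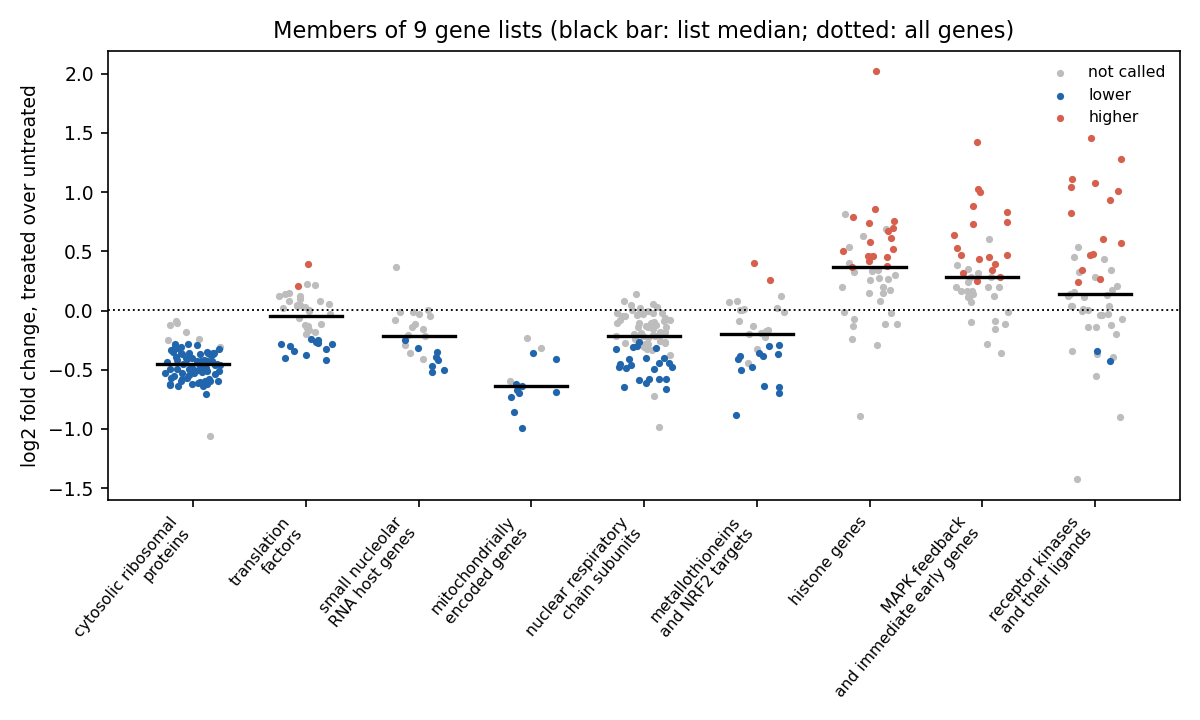
Log2 fold change of each tested member (points) of 9 gene lists in HCC38, coloured by call, with the list median as a black bar and the median of all genes tested as a dotted line. All ribosomal protein points lie below 0, with a median of -0.45, and histone and MAPK feedback medians lie at 0.37 and 0.29.

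Mitochondrial transcripts were lower too. All 13 mitochondrially encoded genes had estimates below 0 and 10 fell (median -0.64). MT-CO3, a cytochrome c oxidase subunit, was at 1251, 1105 and 1004 CPM in the untreated and 620.3, 518 and 554 CPM in the treated libraries (-0.99 ± 0.08, adjusted p = 3.08e-07). MT-CO1 had 4818, 4316 and 3920 CPM untreated and 3213, 2309 and 2577 CPM treated (-0.69 ± 0.10, adjusted p = 0.000157), and the mitochondrial ribosomal RNA gene MT-RNR2 fell (-0.57 ± 0.11, adjusted p = 0.00253). Mitochondrial genes took 2.17 to 2.68% of counts without interferon and 1.35 to 1.94% with it.

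Nuclear genes of the respiratory chain fell in 23 of 76 cases and rose in none (median -0.22). By complex, 7 of 37 genes fell in complex I, 0 of 4 in complex II, 3 of 10 in complex III with cytochrome c, 7 of 10 in complex IV and 6 of 15 in ATP synthase. NDUFA4 was at 72.5, 65.6 and 74.2 CPM untreated and 41.3, 49.5 and 42.8 CPM treated (-0.67 ± 0.08, adjusted p = 4.35e-05), and COX7A2 at 34.9, 35.1 and 34.3 and 22.5, 24.5 and 19.5 CPM (-0.65 ± 0.09, adjusted p = 0.000163). The count of 23 became 11 without untreated replicate 3, 14 without treated replicate 1 and 4 on FPKM.

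Short genes fell more often than long ones. Of protein-coding genes at 10 CPM or more, 24.7% of those with under 1500 exon bases were lower, against 9.01% from 1500 to 3000, 5.72% from 3000 to 6000 and 5.05% above. Without the interferon, ribosomal, translation, respiratory, mitochondrial, histone and host gene lists the shares were 19.3%, 6.41%, 4.85% and 4.82%. Most ribosomal protein and respiratory chain genes are short, and the part of length in their fall was not tested.

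Called genes of the cell cycle and of DNA repair changed by small amounts, against 6.57% of all genes called higher and 5.31% lower. Of 55 G1/S and replication genes 7 rose and 2 fell (median 0.15), with 3 rises without untreated replicate 3 or treated replicate 1 and 12 without treated replicate 2. CCND1, cyclin D1, was at 423, 416 and 417 CPM untreated and 595, 580.2 and 559.7 treated (0.47 ± 0.06, adjusted p = 2.94e-05), and PCNA rose by 0.25 ± 0.06 (adjusted p = 0.0106), which missed the threshold with either untreated replicate 3 or treated replicate 1 dropped (adjusted p = 0.0558 and 0.0688). Among 45 G2/M genes 1 rose and 2 fell; 12 rose without treated replicate 2. For homologous recombination and Fanconi genes, 8 of 39 rose by small amounts, such as BRIP1 (0.36 ± 0.08, adjusted p = 0.00758, and 0.0586 without treated replicate 1), but dropping treated replicate 1 left 0 of them, and dropping treated replicate 3 or any 1 untreated replicate left 2 or 3. In the ATR and CHK1 list 5 of 31 rose and 1 fell, and 2 or 3 rose when any 1 library but treated replicate 2 was dropped.

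The lists that follow are set beside 6.57% of all genes called higher and 5.31% lower. Among 34 apoptosis genes 7 rose and 3 fell (4 rose without untreated replicate 2 or treated replicate 1). PMAIP1, the BH3-only gene NOXA, was at 81.2, 88.7 and 83.5 CPM untreated and 161, 149 and 167 CPM treated (0.91 ± 0.07, adjusted p = 9.7e-08). CASP8, an initiator caspase, rose by 0.49 ± 0.09 (adjusted p = 0.00252). BMF, another BH3-only gene, fell (-0.54 ± 0.09, adjusted p = 0.000814). In the axon guidance list 10 of 52 rose and 3 fell, with SLIT2, a secreted repellent, among the rises (0.87 ± 0.08, adjusted p = 7.14e-07) and SEMA6C, a semaphorin, among the falls (-1.16 ± 0.19, adjusted p = 0.000472); 6 fell without treated replicate 2. Of 26 p53 targets 4 rose, including GDF15 (1.36 ± 0.36, adjusted p = 0.0208) and the cell cycle inhibitor CDKN1A (0.54 ± 0.13, adjusted p = 0.0126), and 2 fell. GDF15 lost its call without untreated replicate 2 or treated replicate 1 or 2 (highest adjusted p = 0.0812), and CDKN1A without untreated replicate 2 or 3 (0.061). In the metabolic lists, 6 of 35 glycolysis and hypoxia genes rose and 4 fell, and 1 of 41 sterol and fatty acid genes rose and 4 fell, with no glycolysis gene rising without untreated replicate 2 or treated replicate 1, 2 without untreated replicate 3 and 3 without treated replicate 2.

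Set against MDA-MB-231 in a fit of all 12 libraries with a term for its 2 library sets, rising list genes, other rising genes and falling genes of HCC38 were each followed. Of the 149 list genes that rose in HCC38, 135 were also called higher in MDA-MB-231 (90.6%; 11.6% of all genes were), and the difference of responses passed for 102, larger in MDA-MB-231 for 92. Of the 934 rising genes outside the list, 302 were also higher there (32.3%), 74 were lower, and the difference passed for 358, with 311 of these less positive in MDA-MB-231. Of the 876 falling genes, 259 also fell (29.6%; background 11%), 61 rose, and the difference passed for 261, 215 of them towards a smaller fall or a rise in MDA-MB-231. Over all 1959 genes the difference passed for 721 (12.2% of all genes tested did), or 312 without the set term. These genes were chosen by their calls in the same HCC38 libraries that enter the difference. That choice by itself favours differences towards a weaker response in MDA-MB-231 and a share above that of all genes. Its part in these counts was not tested. Lines and their media cannot be told apart.

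Several of the rises above differed between the lines by that test. NT5E was at -0.11 ± 0.09 in MDA-MB-231 (difference -3.03 ± 0.15, adjusted p = 1.08e-11), where its mean was already 582 CPM without interferon. DKK1 was at 0.06 ± 0.07 there (difference -1.70 ± 0.10, adjusted p = 2.2e-10), FOSL1 at -0.20 ± 0.07, a called fall (-1.62 ± 0.10, adjusted p = 4.97e-10), MET at -0.02 ± 0.08 (-1.12 ± 0.11, adjusted p = 8.47e-07) and ITGA2 at -0.10 ± 0.07 (-1.23 ± 0.10, adjusted p = 1.02e-07). AXL moved the opposite way in MDA-MB-231, -0.43 ± 0.06 (adjusted p = 6.85e-05; difference -1.25 ± 0.09, adjusted p = 7.92e-09). Of the 18 MAPK genes chosen for rising in HCC38, 5 rose and 2 fell there, and 12 had a difference, all negative. Over all 43 genes of that list, 15 rose and 5 fell in MDA-MB-231, and of 20 differences 14 were negative and 6 positive. DHRS2 (4.03 ± 0.26), IL6 (1.59 ± 0.13) and AREG (1.34 ± 0.15) rose in both lines, with differences that did not pass (adjusted p = 0.0672, adjusted p = 0.792 and adjusted p = 0.388).

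Several falls also differed between the lines. LGR4 was higher with interferon in MDA-MB-231, 0.34 ± 0.07 (adjusted p = 0.00195; difference 1.80 ± 0.11, adjusted p = 5.43e-10), and so were TGFBI, 0.46 ± 0.07 (adjusted p = 9.84e-05; difference 1.02 ± 0.10, adjusted p = 6.62e-07), and FST, 1.04 ± 0.11 (adjusted p = 4.77e-07; difference 1.86 ± 0.15, adjusted p = 7.03e-08). ACTA2 (2.83 ± 0.33, adjusted p = 8.01e-06), CYP24A1 (2.41 ± 0.34, adjusted p = 9.23e-05) and ENPP2 (2.32 ± 0.30, adjusted p = 4.26e-05) also differed, from means of 0.402, 0.493 and 1.08 CPM in untreated MDA-MB-231. SERPINA3, CXCL12, S100A8 and CARMN are at 0 counts in MDA-MB-231 and give no comparison. Ribosomal protein genes were lower in both lines, 49 of 79 in MDA-MB-231 with 7 differences, as were mitochondrially encoded genes, 12 of 13 with 1 difference. G1/S and replication genes separated the lines: 29 of 55 fell in MDA-MB-231, and all 31 differences were towards a lower response there.

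**Figure D5:**
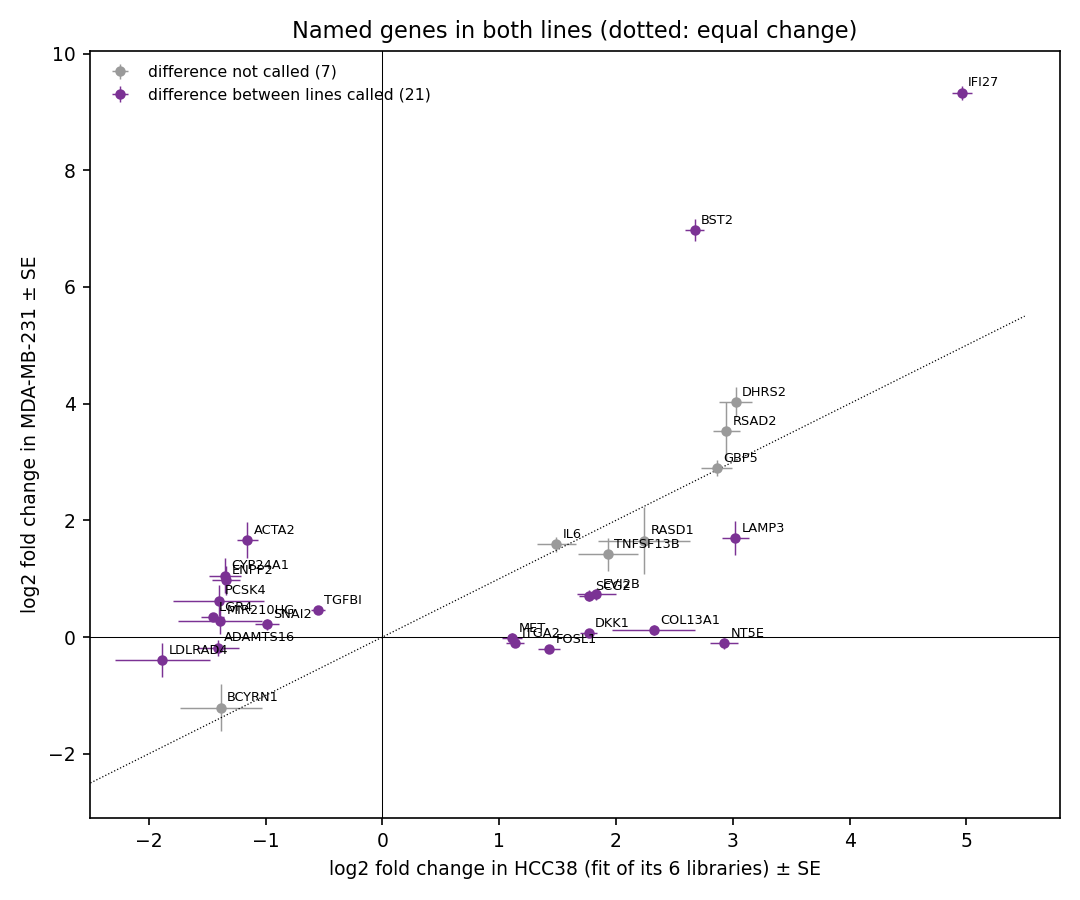
Log2 fold change in HCC38 (horizontal, fit of its 6 libraries) and in MDA-MB-231 (vertical, fit of 12 libraries) for 28 named genes with at least 1 CPM summed over the MDA-MB-231 group means; bars are SE and the dotted line marks equal change. The difference passed for 21 of the 28 (purple); NT5E, DKK1, FOSL1, MET and ITGA2 lie to the right near 0 on the vertical axis, and ACTA2, CYP24A1 and LGR4 lie at the upper left.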

How the data were processed

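Per the submitters' processing notes, fastp 0.23.2, HTSeq 2.0.2 and Cufflinks 2.2.1 were used with GRCh38.p13; per the labels' protocols RNA came from an RNeasy kit and libraries from a directional NEBNext Ultra II kit. The authors deposited raw gene counts and FPKM values; aligner, annotation release and counting strand: not given in the sources used here. Of the 61552 genes, 20495 have no symbol. Read counts of the 6 HCC38 libraries were tested as deposited with edgeR 4.0.16 (R 4.3.3): TMM scaling, filterByExpr (minimum count 10, minimum total 15), quasi-likelihood test, Benjamini-Hochberg adjusted p under 0.05 over 16484 genes. Values after ± are SE for log2 fold changes, approximated as the size of the change over the square root of F, which may understate the counting error of genes with few counts. The difference between lines was tested as an interaction in all 12 libraries, with a term for the MDA-MB-231 libraries numbered 1 and 2 against 4 and 5 in the deposited names. Replicates of a group differed beyond sampling noise (chi-square per degree of freedom 4.1 to 14.1), so none was counted as a copy. The first principal component (44.3% of variance) separated treated from untreated libraries.

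Deposited FPKM values, DESeq2 1.42.0, limma 3.58.1, other scalings and filters, a replicate block and each library left out were alternatives; scripts were tested on simulated data. The genes, lists and members were chosen with earlier results of these data known, and no list was tested as a set. Genes named by rule passed the test, had non-overlapping groups, at least 1 CPM in the higher group and a symbol other than a clone, antisense, readthrough or LINC name: the 6 largest list rises, the 14 largest other rises, the 16 largest falls, the 6 largest CPM changes each way outside that list, and up to 4 called members per list and direction by p, with list members that define its role; further list and marker members fall outside this rule and were chosen after their values were seen, among them FGFR4, ITGAX and MT2A, whose groups overlap, and PTPRC, under 1 CPM. Gene places and exon overlap come from GENCODE release 29, and start regions from RefSeq (GRCh38.p14), which matched 11601 of 16484 genes.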

Additional observations from a re-analysis of the deposited data

Results flagged for a closer look

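Responses that differed between the lines by the interaction test are listed here for the genes named by size of change. Values are the log2 response of MDA-MB-231 minus that of HCC38. The genes were named for large changes in HCC38, which by itself favours differences towards a weaker response in MDA-MB-231. None of these differences was traced to a cause. Among interferon-stimulated genes the difference was 4.38 ± 0.17 for IFI27, 4.31 ± 0.23 for BST2 and -1.32 ± 0.36 for LAMP3. Among rises outside that list it was -3.03 ± 0.15 for NT5E, -2.19 ± 0.28 for COL13A1, -1.70 ± 0.10 for DKK1, -1.09 ± 0.17 for EVI2B, -1.06 ± 0.13 for SCG2, -0.72 ± 0.08 for PRNP, -0.60 ± 0.11 for HSP90B1, -0.54 ± 0.12 for ITGA3, -0.53 ± 0.09 for ITGB1 and 0.46 ± 0.09 for H1-2.

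Among falling genes the difference was 1.80 ± 0.11 for LGR4, 2.41 ± 0.34 for CYP24A1, 1.23 ± 0.22 for ADAMTS16, 2.71 ± 0.67 for CHRD, 2.34 ± 0.61 for WFDC21P, 1.67 ± 0.42 for MIR210HG, 2.04 ± 0.46 for PCSK4, 3.62 ± 0.92 for DUSP15, 1.502 for LDLRAD4 and -0.95 ± 0.20 for MT-RNR2. Levels of CHRD, WFDC21P and DUSP15 were under 1 CPM in MDA-MB-231 in both groups.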

How the results depend on the processing

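The count of 1959 genes was within 1.5 times of itself under other scalings (1956 and 1937), filters (2304 without one, 1940 with 1 CPM in 3 libraries), DESeq2 (2012) and limma-voom (1892). It was 492 (358 higher, 134 lower) and 521 (371 and 150) on log2(FPKM + 1) and log2(FPKM + 0.1), 659 (433 and 226) in the fit of all 12 libraries without the set term and 1913 with it. With 1 library left out it was 1097 (631 and 466, without treated replicate 1) to 2287 (1361 and 926, without treated replicate 2). The higher share of calls was 55.3%, and 72.8% and 71.2% on FPKM and 65.7% in the 12-library fit. The cause of these shifts was not tested. With the replicate number as a block, 1601 genes passed (898 higher, 703 lower). Deviations of same-numbered libraries had correlations of 0.0481, -0.153 and 0.0316, against -0.183 to 0.167 for libraries with different numbers. With 3 libraries per group these values cannot show whether the numbers pair the libraries. Of the 202 named genes, 75 kept the call under every alternative, 127 lost it under some, and 4 changed sign on FPKM: NKD1 (1.07 and 1.72), DDR2 (0.0410 and 0.0414), PRRX1 (0.0641 and 0.0682) and LDLRAD4 (0.0641 with 1 added). Among genes with values in the report, the FPKM scales also ended the calls of BMF, CASP8, CARMN, COX7A2, DDIT4, EEF1B2, MMP16, MT-RNR2, MYL6, MYL9, POSTN, ROR1, RPS12, SEMA6C, TGFB3, TMSB10 and TPT1, among others, and the 12-library fit without the set term those of CALR, CXCL8, DUSP6, EEF1A1, FST, HSP90B1, HSPA5, INHBA, MATN2, MT-CO1, SNHG29 and THBS1, among others. The 721 differences between lines were 312 without the set term and 592 to 780 with 1 library left out. Calls were made for 2.13% of genes under 1 CPM and 20.5% at 100 CPM or more, so depth limits what low genes can show.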
